A study of Ascaridia galli and Trichostrongylus colubriformis with 4 samples.

Results

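Enzymes of glycolysis and of malate metabolism were followed in *Ascaridia galli*, a roundworm that parasitizes chickens, as unigenes (assembled transcripts) whose best protein hit lies in a related ascaridid worm. The rule that chose them used annotation alone, though it was set with earlier results of these data known. The hit had to belong to *Ascaris*, *Toxocara*, *Anisakis*, *Parascaris* or *Ascaridia*. Its product name had to hold that of a glycolytic enzyme, phosphoenolpyruvate carboxykinase, malate dehydrogenase, malic enzyme or an enzyme of fumarate. The rule found 51 unigenes among 150798 in all, of which 55354 had a protein hit and 28171 an ascaridid one. Their hits were entries of *Ascaris suum* (24), *Toxocara canis* (17) and *Anisakis simplex* (10). Identity to the hit ran from 37.7% to 90.5%, with a median of 74.5%.

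The names did not all mean what the label of the set says. Of the 51 unigenes, 43 were enzymes of the pathways and 8 carried a matching word for another reaction: transaldolase, deoxyribose-phosphate aldolase, 6-phospho-5-dehydro-2-deoxy-D-gluconate aldolase and D-3-phosphoglycerate dehydrogenase. No unigene of the set was a hexokinase, because the word matched only "phosphohexokinase", a synonym of phosphofructokinase, in 4 names. The set also had no fumarate reductase by name: its fumarate entries were fumarate hydratases.

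Whole worms gave the poly(A) RNA for 2 libraries, 1 from worms treated with a water extract of *Pottia lanceolata*, a moss, and 1 from worms held in distilled water. The worms came from intestines of slaughtered chickens, assay dishes held 6 worms, and the assay used 10, 20 and 50 mg/ml of extract; the concentration behind the RNA, the number of worms in each library, and their sex and age are not stated in the labels. The deposited table calls its conditions A and B and does not say which is extract and which is water, so every ratio below is condition B over condition A and none is a direction of response to the extract. With 1 library per condition there was no replicate and no test between conditions, and the 95% counting intervals cover counting error alone. In bulk RNA of whole worms, fewer cells of a type and less RNA per cell cannot be told apart.

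Ascaridids live in a gut lumen poor in oxygen and draw energy from stored glycogen. Glycolysis runs to phosphoenolpyruvate, which these worms carboxylate to oxaloacetate with phosphoenolpyruvate carboxykinase, whereas most animals make pyruvate from it with pyruvate kinase. Malate dehydrogenase reduces oxaloacetate to malate, which enters the mitochondria and is split between oxidation by malic enzyme and dehydration to fumarate by fumarate hydratase, followed by reduction to succinate with rhodoquinone as the carrier. This scheme was worked out largely in *Ascaris suum* muscle and is known as malate dismutation.

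The libraries held 69118994 recovered reads in condition B and 87659967 in condition A. The 51 unigenes took 1.41% of the reads in condition B and 1.47% in condition A. Reads were concentrated in a few of them: the 4 with the most normalized counts held 73.7% of the set's sum in condition B and 70.1% in condition A. At the deposited scaling, 39 of the 51 were lower in condition B and 12 higher. Scaling on total reads adds 0.38 to each log2 ratio and the trimmed mean of M-values adds 0.14. Under total scaling 28 were lower and 23 higher, so a small negative ratio at the deposited scaling has no fixed sign.

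Large differences were few. A member was called when it differed 4-fold or more and reached 20 normalized counts in either condition, which 50 did. Of these, 4 were called higher in condition B and 2 were called lower. Among all unigenes under the same rule, 22.7% were higher and 9.76% lower, and among those with an ascaridid hit 2.95% were higher and 7.71% lower. Where the mean of both conditions was 10 or more, 50 members had a median log2 ratio of -0.42, with quartiles at -0.97 and -0.08, against -0.58 over all 27387 such unigenes with an ascaridid hit and -0.03 over all unigenes. The median of the members was -0.04 under total scaling and -0.29 under the trimmed mean of M-values. The authors' deposited table marks 4 members up, 2 down and 45 neutral, their lowest p-value there is 0.0446 and all their adjusted p-values are 1.

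**Figure D1:**
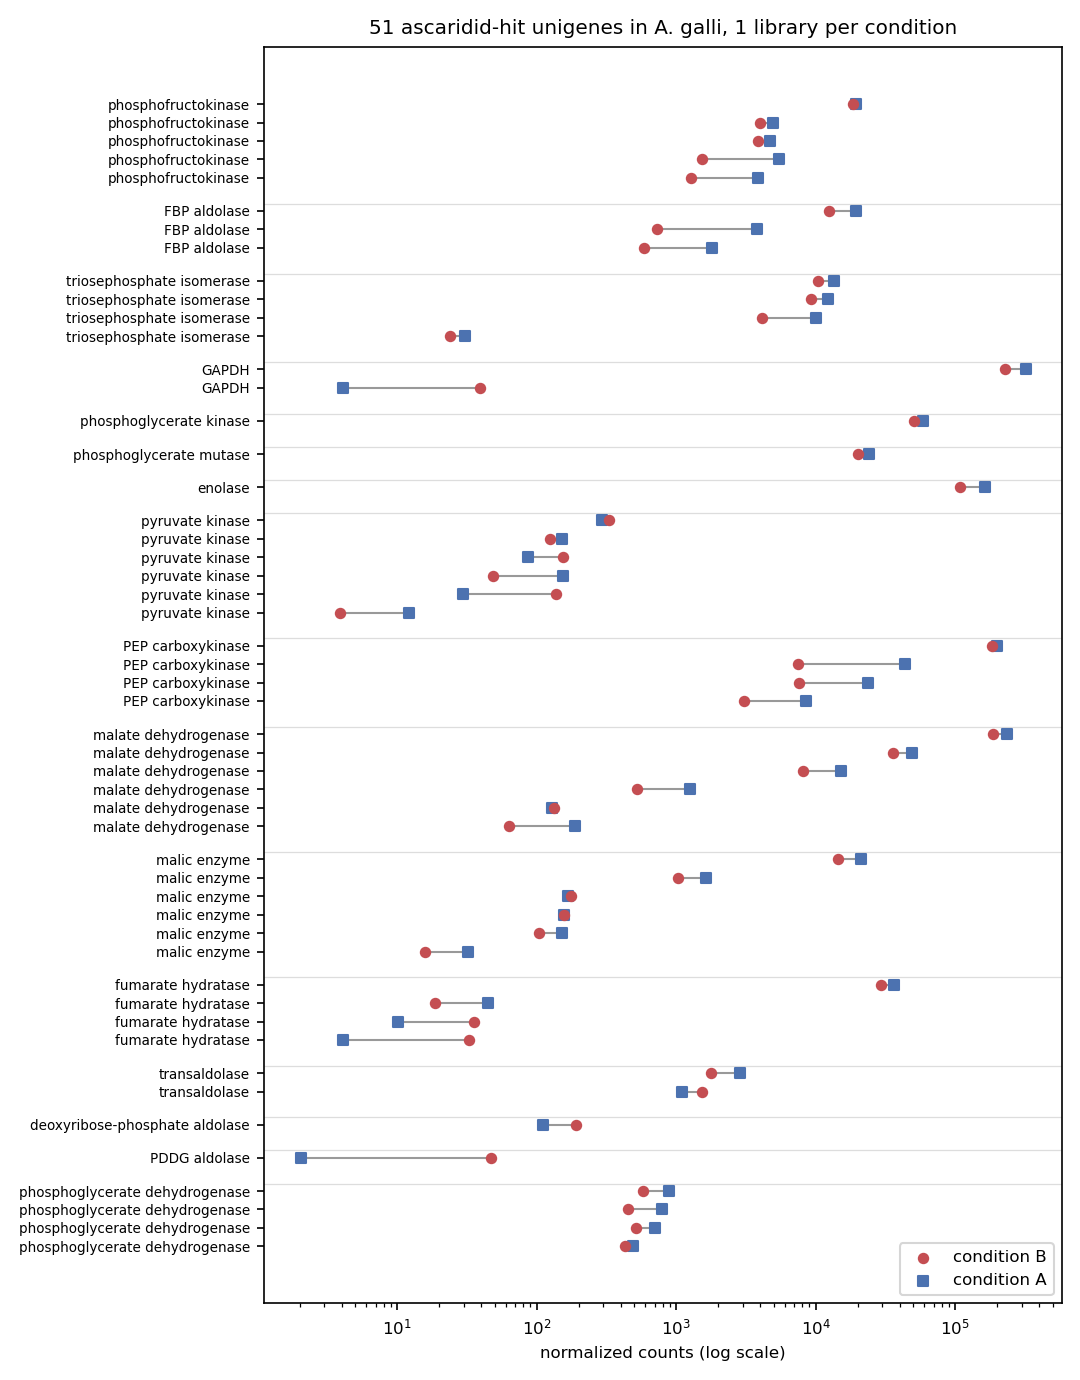
Normalized counts (horizontal log axis) of the 51 unigenes, 1 row per unigene grouped by enzyme, in condition B (circles) and condition A (squares). The most abundant row of phosphofructokinase and of phosphoenolpyruvate carboxykinase shows nearly overlapping symbols. The other carboxykinase rows and the lowest phosphofructokinase rows lie clearly farther to the left in condition B. The phosphofructokinase rows between lie only slightly to the left.

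Phosphoenolpyruvate carboxykinase, the enzyme that turns the pathway toward malate, showed the widest spread in log2 ratio among forms with a mean of at least 1000. The most abundant form, Chick_Unigene_63756, whose hit is an *A. suum* protein of 683 residues, had 182510 normalized counts in condition B and 199435 in condition A. Its log2 ratio was -0.13 (interval -0.14 to -0.11), which is 0.26 under total scaling. This form was nearly level between the conditions, and its sign depended on the scaling.

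The other 3 forms of phosphoenolpyruvate carboxykinase were well below it in condition B. Chick_Unigene_78599 had 7483 normalized counts in condition B and 43919 in condition A, a log2 ratio of -2.55 (interval -2.60 to -2.50). Chick_Unigene_123977 had 7615 in condition B and 23622 in condition A, a ratio of -1.63. Both align to the same stretch of the same *T. canis* protein with 82.7% identity, and how reads were shared between such like sequences in counting was not tested. Together they had 15098 normalized counts in condition B and 67541 in condition A, which is -2.16. The fourth form, Chick_Unigene_71405, with another *T. canis* hit of 646 residues, had 3067 in condition B and 8463 in condition A (-1.46). All 3 stayed lower in condition B under total scaling, at -2.17, -1.25 and -1.08.

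The make-up of the set's carboxykinase reads differed between the libraries. Shares of a step, here and below, are of the reads of the set's members and leave out hits in other nematodes. The 683-residue form held 90.9% of the step's reads in condition B (exact Clopper-Pearson interval 90.8% to 91.1%) and 72.4% in condition A (72.2% to 72.6%). The pair with the 678-residue *T. canis* hit held 7.52% in condition B and 24.5% in condition A. These shares do not depend on the scaling between the libraries. The 4 members of the step, summed, had 200675 normalized counts in condition B and 275439 in condition A, a log2 ratio of -0.46 (-0.07 under total scaling).

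The most abundant carboxykinases outside the set had lower ratios than the leading form too. Chick_Unigene_103950, whose best hit is a *Haemonchus contortus* protein at 81.8% identity, had 12990 normalized counts in condition B and 25766 in condition A (-0.99). The next by abundance with that hit, Chick_Unigene_93240 and Chick_Unigene_81904, were at -0.94 and -0.94, and all 3 remained below 0 under total scaling (-0.60, -0.56 and -0.55). In all, 10 carboxykinase unigenes had a hit in another nematode, and they summed to 20569 in condition B and 39894 in condition A. Of these, 2 were called higher and 0 lower, against 35.2% and 5.17% of all unigenes with a hit outside the ascaridids.

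Pyruvate kinase, which makes pyruvate from the same substrate, was scarce in both libraries. Its 6 members summed to 797 normalized counts in condition B and 727 in condition A, a log2 ratio of 0.13 with an interval of -0.08 to 0.34. Per kilobase of the hits' coding length, counting members that cover at least 80% of their hit, carboxykinase stood at 98078 in condition B and 134906 in condition A. Pyruvate kinase stood at 279 in condition B and 275 in condition A on that scale. The carboxykinase level was 351 times that of pyruvate kinase in condition B and 491 times in condition A. With hits in any nematode and at least 65% identity, the ratio was 117 in condition B and 91.8 in condition A, and with any identity 45.2 in condition B and 78.0 in condition A, so the order of the conditions depends on the hits counted. These are transcript levels on an approximate length scale, since the table gives the length of the hit and not that of the unigene.

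The forms of pyruvate kinase had ratios of both signs. The most abundant member, Chick_Unigene_56125, had 327 normalized counts in condition B and 293 in condition A, a log2 ratio of 0.16 whose interval (-0.17 to 0.49) includes 0. A pair with the same *T. canis* hit, of 539 residues, stood at 124 in condition B and 151 in condition A (Chick_Unigene_29471, -0.28) and at 155 in condition B and 87.2 in condition A (Chick_Unigene_206708, 0.82). Those 3 shared one best hit and differed by 1.10 on the log2 scale between lowest and highest. Chick_Unigene_86326, with an *A. suum* hit at 83.5% identity, had 48.3 in condition B and 154 in condition A (-1.65).

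A low-identity member of this enzyme was among those called. Chick_Unigene_126975 (50.3% identity over 179 residues) had 138 normalized counts in condition B and 29.4 in condition A, a log2 ratio of 2.19 with an interval of 1.40 to 3.16. Chick_Unigene_107862, the only member with a mean under 10, had 3.9 in condition B and 12.2 in condition A. A pyruvate kinase outside the set was more abundant than each member: Chick_Unigene_78439, with a *Brugia malayi* hit at 66.9% identity, had 372 in condition B and 1379 in condition A (-1.89). With all hits of at least 65% identity the summed log2 ratio of the enzyme was -0.85, so the sign of its sum depends on which hits are counted.

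**Figure D2:**
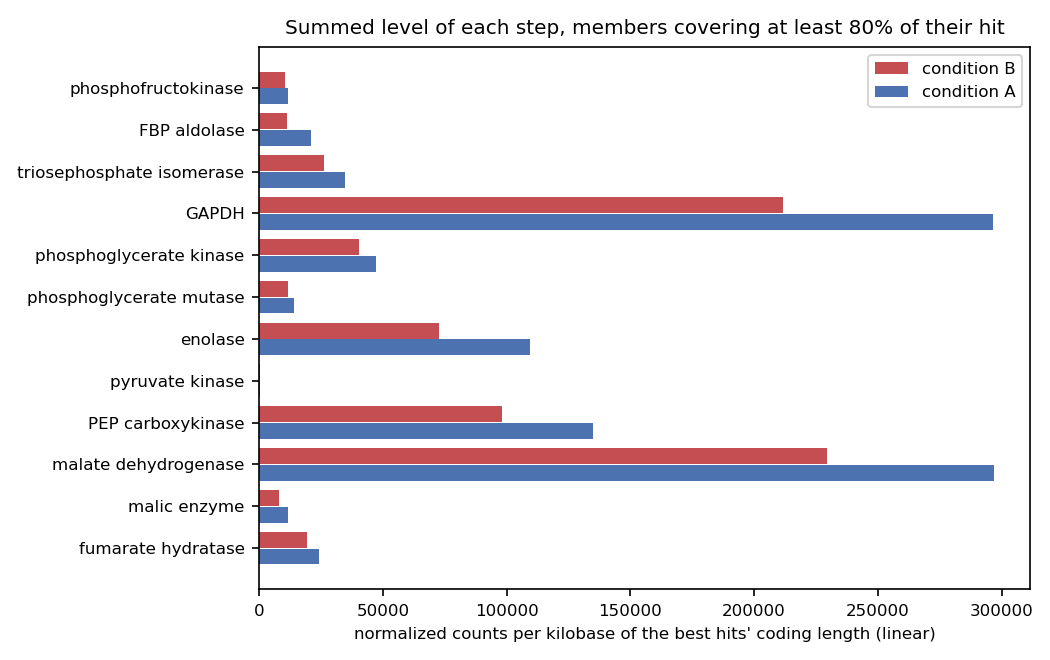
Summed level of each step (horizontal linear axis, normalized counts per kilobase of the best hits' coding length) for members that cover at least 80% of their hit, in condition B (upper bar) and condition A (lower bar), without error bars because each condition is 1 library. Pyruvate kinase, at 279 in condition B and 275 in condition A, is too low to be seen beside phosphoenolpyruvate carboxykinase at 98078 and 134906.

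Upstream, phosphofructokinase, which commits sugar phosphate to glycolysis, also had a leading form near level and others below it in condition B. Chick_Unigene_100034 (*T. canis* hit of 828 residues, 88.3% identity) had 18655 normalized counts in condition B and 19496 in condition A, a log2 ratio of -0.06 (0.32 under total scaling). Chick_Unigene_62205 had 3982 in condition B and 4905 in condition A (-0.30), and Chick_Unigene_223360 had 3847 in condition B and 4708 in condition A (-0.29). That pair aligns to the same span of one *T. canis* protein at the same identity and differed by 0.01 in log2 ratio. Both turn to 0.08 and 0.09 under total scaling.

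Its remaining forms were lower in condition B under each scaling. Chick_Unigene_26987 (*A. simplex* hit) had 1534 normalized counts in condition B and 5484 in condition A, a log2 ratio of -1.84 (interval -1.96 to -1.72). Chick_Unigene_92293 (*A. suum* hit) had 1273 in condition B and 3878 in condition A (-1.61). The pair aligns to different stretches of a phosphofructokinase, residues 392 to 740 of 742 and 9 to 455 of 610, and covers neither hit in full. The leading form held 63.7% of the phosphofructokinase reads in condition B (interval 62.9% to 64.5%) and 50.7% in condition A (50.0% to 51.4%).

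Fructose-bisphosphate aldolase, which splits the hexose bisphosphate into triose phosphates, held the other member called lower. Chick_Unigene_61333 had 729.8 normalized counts in condition B and 3793 in condition A, a log2 ratio of -2.38 (interval -2.54 to -2.22) that came to -1.99 under total scaling, just inside 4-fold. Chick_Unigene_136539, with the same *A. simplex* hit of 364 residues, had 589 in condition B and 1791 in condition A (-1.60). The most abundant aldolase of the set, Chick_Unigene_45810, had 12387 in condition B and 19400 in condition A (-0.65). It held 90.4% of the set's aldolase reads in condition B (interval 89.7% to 91.1%) and 77.7% in condition A (76.9% to 78.4%).

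The most abundant aldolase of the worm lay outside the set. Chick_Unigene_110448 has its best hit in the pinworm *Enterobius vermicularis*, at 85.8% identity over the whole protein, and had 78236 normalized counts in condition B and 97214 in condition A (-0.31; 0.07 under total scaling). The summed log2 ratio of aldolase was -0.87 in the set and -0.41 with hits in any nematode of at least 65% identity. The value of this step thus depends on the choice by hit organism.

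Triosephosphate isomerase, which interconverts the triose phosphates, had a closely matched pair and a lower form. Chick_Unigene_96379 had 10301 normalized counts in condition B and 13482 in condition A (-0.39), and Chick_Unigene_119491 had 9238 in condition B and 12267 in condition A (-0.41). The pair has the same hit, span and identity, and stands at -0.01 and -0.03 under total scaling. Chick_Unigene_66161, whose *A. simplex* hit is a 791-residue entry that carries a peptidyl-prolyl isomerase term as well, had 4138 in condition B and 9987 in condition A (-1.27, interval -1.35 to -1.20). The fourth, Chick_Unigene_48037, had 23.7 in condition B and 30.4 in condition A.

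The later steps of glycolysis were led by single abundant unigenes with modest ratios. Glyceraldehyde-3-phosphate dehydrogenase, which makes the first high-energy phosphate, had 228771 normalized counts in condition B and 320471 in condition A (Chick_Unigene_104428, -0.49; -0.10 under total scaling). Phosphoglycerate kinase, which makes ATP, had 50426 in condition B and 58914 in condition A (Chick_Unigene_133572, -0.22). The cofactor-independent phosphoglycerate mutase, a form that vertebrates lack, had 20115 in condition B and 24083 in condition A (Chick_Unigene_20804, -0.26). Enolase, which makes phosphoenolpyruvate, had 108143 in condition B and 163247 in condition A (Chick_Unigene_121306, -0.59). Under total scaling the kinase and the mutase turn positive, at 0.16 and 0.12, while enolase stays negative at -0.21. Within the set, enolase was therefore lower relative to phosphoglycerate kinase by a margin that no scaling alters.

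Malate dehydrogenase was, with glyceraldehyde-3-phosphate dehydrogenase, the step with the highest level per kilobase, at 229318 in condition B and 296765 in condition A. Its main form, Chick_Unigene_216388 (*A. suum* hit of 333 residues), had 186592 normalized counts in condition B and 235018 in condition A (-0.33; 0.05 under total scaling). Chick_Unigene_28652 (*A. suum* hit of 340 residues) had 35999.6 in condition B and 48732 in condition A (-0.44), and Chick_Unigene_9079 (*T. canis* hit of 370 residues named mdh1) had 8042 in condition B and 15247 in condition A (-0.92). The main form held 80.7% of the reads in condition B and 78.2% in condition A, so the make-up of this step differed less than that of the carboxykinase.

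The smaller malate dehydrogenases were of mixed direction. Chick_Unigene_96138 had 528 normalized counts in condition B and 1255 in condition A (-1.25), and Chick_Unigene_111780 had 133 in condition B and 128 in condition A (0.06, interval -0.46 to 0.58). Their shared *T. canis* hit, named mitochondrial, is a 702-residue entry that also carries a ribosome term. Chick_Unigene_5344, aligned over 46 residues, had 63.1 in condition B and 187 in condition A (-1.55).

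Malic enzyme, which the table annotates as the NAD-dependent form, was led by Chick_Unigene_90668 with 14496 normalized counts in condition B and 20952 in condition A (-0.53; -0.15 under total scaling). Chick_Unigene_93161 had 1035 in condition B and 1626 in condition A (-0.65). Both cover nearly the whole of one 640-residue *A. suum* protein, at 64.6% and 76.2% identity, and so are different sequences. The leading form held 90.7% of the malic enzyme reads in condition B and 90.8% in condition A, nearly the same share in both.

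The short malic enzyme members had few reads and wide intervals. Chick_Unigene_28819 had 176 normalized counts in condition B and 167 in condition A (0.07), Chick_Unigene_149579 had 157 in condition B and 156 in condition A (0.01), and Chick_Unigene_85304 had 105 in condition B and 152 in condition A (-0.54, interval -1.08 to -0.01). The intervals of the first and second of these include 0. Chick_Unigene_64507, with 15.8 in condition B and 32.4 in condition A, covers 8.72% of its hit. Outside the set, 41 malic enzyme unigenes with other nematode hits summed to 4169 in condition B and 2347 in condition A. Of these, 11 were called higher and 1 lower, against 35.2% and 5.17% of all unigenes with a hit outside the ascaridids. The most abundant were Chick_Unigene_159930 (-0.20, 80.4% identity), Chick_Unigene_15087 (1.99, 40.3%) and Chick_Unigene_179705 (2.61, 40.1%). Whether those at low identity come from the worm itself was not tested.

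Fumarate hydratase, which converts malate and fumarate into each other, had a single abundant member. Chick_Unigene_128452, whose *T. canis* hit is named fum-1, had 29202 normalized counts in condition B and 36181 in condition A (-0.31; 0.07 under total scaling). It held 99.7% of the step's reads in condition B and 99.8% in condition A. The other 3 members had between 18.7 and 35.5 normalized counts in condition B and between 4.06 and 44.6 in condition A.

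In the steps with several abundant unigenes, the further forms mostly had lower ratios than the leading one, and how many did depended on the grouping. In 6 of the named steps there were 14 further members whose mean reached 1000 normalized counts. Grouped by step, 14 of 14 had a lower log2 ratio than the most abundant member, by 0.02 to 2.43. Grouped by product name it was 9 of 12, because forms of one step that are named differently fall into separate groups. Summed per best-hit protein it was 10 of 10, and with hits in any nematode of at least 65% identity 19 of 19. With the transaldolases counted too, whose further member was the higher one, it was 14 of 15 by step and 9 of 13 by product name. No other grouping was tried, the pattern was noticed in these values, and it was not tested.

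The background is grouped by product name and is set against the 9 of 12, or 9 of 13 with transaldolase. Among 1558 further unigenes of 893 other ascaridid-hit product names, at the same minimum, 41.8% had a lower ratio than the most abundant unigene of their name. A ratio lower by more than 1 on the log2 scale was found for 6.55% of the 1558, and for 1 of the 12 members grouped in the same way, which is near that background. The 6 of 14 found when members are grouped by step has no background of its own grouping and is given as a count only. Differences within a step do not depend on the scaling between the libraries. Summed without the leading member of each step, the set had a log2 ratio of -1.06, against -0.45 with it. That value was not common to the steps. It was -2.08 for aldolase, -2.06 for carboxykinase, -0.84 for phosphofructokinase and -0.73 for triosephosphate isomerase. Malate dehydrogenase had -0.55 and malic enzyme -0.52. Pyruvate kinase (0.11), fumarate hydratase (0.56) and glyceraldehyde-3-phosphate dehydrogenase (3.28) were positive, on few reads.

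**Figure D3:**
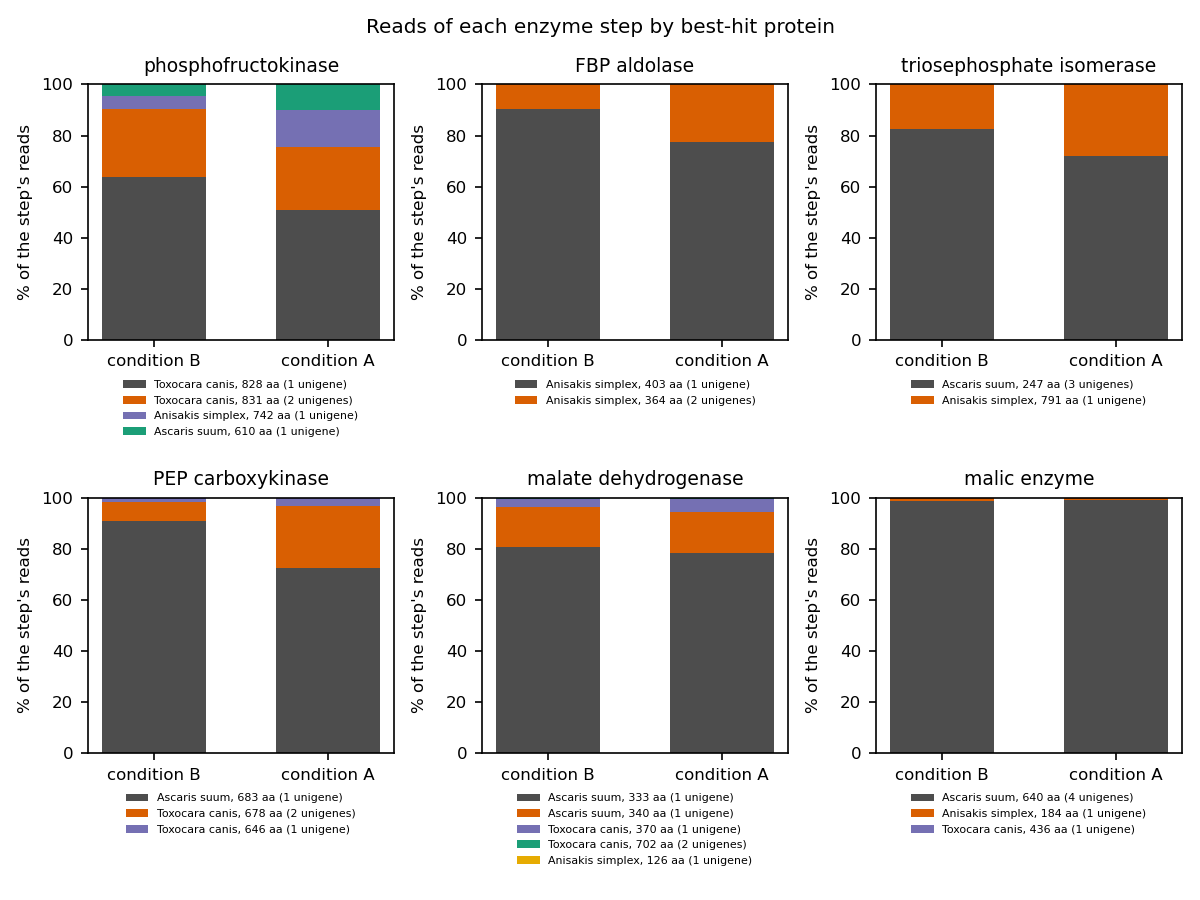
Share of the reads of each step's members (vertical axis, percent) by best-hit protein in condition B (left bar) and condition A (right bar) for the 6 steps with several abundant members, colours marking the proteins by species and length in residues (aa). Hits in other nematodes, among them the most abundant aldolase, are left out. For PEP carboxykinase (phosphoenolpyruvate carboxykinase) the leading protein holds 90.9% of the reads in condition B and 72.4% in condition A, whereas for malic enzyme the bars are nearly the same.

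Members with few reads lay apart from the abundant ones. Of the 27 members whose mean reached 1000 normalized counts, 26 were lower in condition B at the deposited scaling and 18 under total scaling, and 8 (29.6%) were at least 2-fold lower; among all ascaridid-hit unigenes this abundant, 25.6% were at least 2-fold lower. A share this near the background is no result about the set. In that class 0 of 27 members were called higher and 2 were called lower, against 0.541% and 4.39% of all ascaridid-hit unigenes. The 15 members with a mean from 100 to 1000 had a median log2 ratio of -0.28, and 0 were called (0.675% higher and 6.83% lower in the background).

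All 4 members called higher in condition B had a mean under 100. Besides the pyruvate kinase Chick_Unigene_126975, they were Chick_Unigene_203506 (glyceraldehyde-3-phosphate dehydrogenase), with 39.4 normalized counts in condition B and 4.06 in condition A, Chick_Unigene_221995 (fumarate hydratase), with 32.5 in condition B and 4.06 in condition A, and Chick_Unigene_162320 (6-phospho-5-dehydro-2-deoxy-D-gluconate aldolase), with 47.3 in condition B and 2.03 in condition A. Their log2 ratios were 3.0, 2.73 and 4.0, resting on 4, 4 and 2 reads in condition A. The lower bounds of their counting intervals were 1.24, 0.92 and 1.93, so none of the 4, the pyruvate kinase included, was beyond 4-fold by its interval. In the background 7.83% of ascaridid-hit unigenes with a mean under 100 were called higher and 11.1% lower.

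These members were also fragments by alignment. The 5 members at least 2-fold higher in condition B, the called ones and the fumarate hydratase Chick_Unigene_101392, covered at most 73.7% of their hits, at 46.8% to 79.7% identity. The 29 members that cover at least 80% of their hit had a median log2 ratio of -0.44, with 0 called higher and 2 lower. The 22 that cover less had -0.35, with 4 called higher and 0 lower. Over all ascaridid-hit unigenes of any coverage the shares were 2.95% and 7.71%. Shares by coverage were not computed, so the split is given as counts only. Few reads, short alignments and low identity went together, and their part in the ratios was not tested.

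**Figure D4:**
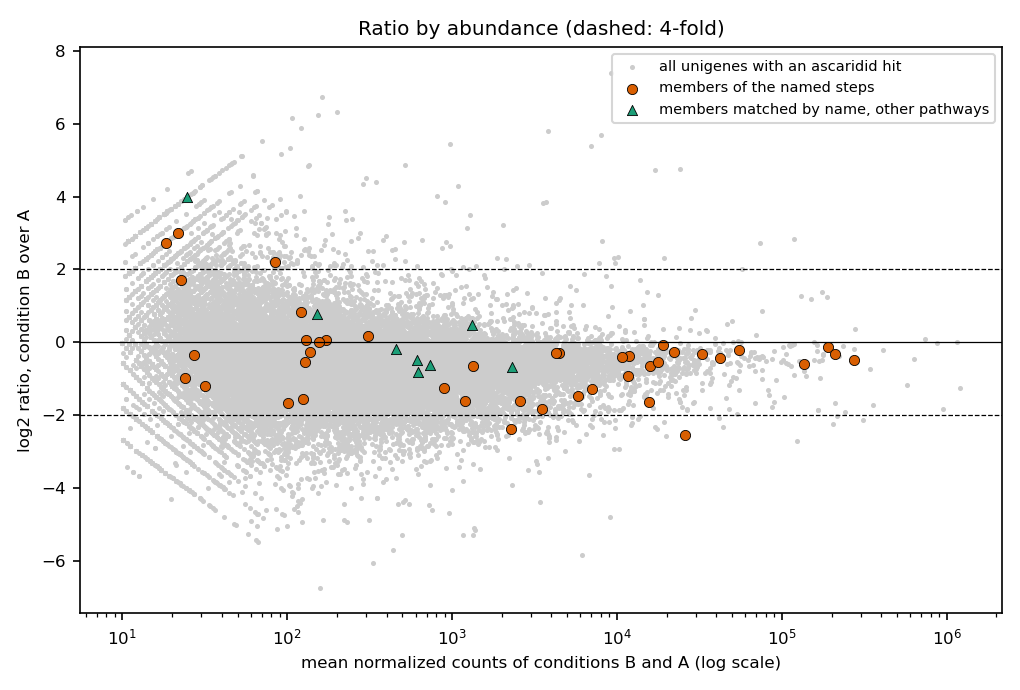
Log2 ratio of condition B over condition A (vertical axis) against the mean normalized counts of both conditions (horizontal log axis) for all ascaridid-hit unigenes with a mean of at least 10 (grey), members of the named steps (circles) and members matched by name from other pathways (triangles). Dashed lines mark 4-fold; the members above the upper line have means under 100, and the members below the lower line have 2261 and 25701.

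Unigenes with the same product names but a best hit in another nematode were mostly of that scarce kind. There were 264 of them, with a median of 24.6 mean normalized counts against 1321 for the members, and their median log2 ratio was 1.71 with 96 of the 195 that reached 20 counts called higher and 1 lower. Over all unigenes with a hit outside the ascaridids the median was 0.98, with 35.2% called higher and 5.17% called lower, so much of this shift is shared by such hits in general. The difference of the medians, members minus these, was -2.13, and it was -0.28 among unigenes with a mean of at least 100. Of the 264, 47 were 3-isopropylmalate dehydrogenases, an enzyme of leucine synthesis caught by the words "malate dehydrogenase". The 62 with at least 65% identity had a median of 0.35, against 2.04 for the 202 with less. Whether the unigenes with low identity come from the worm itself was not tested.

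Of the members from other reactions, transaldolase, of the pentose phosphate pathway, had a pair of unigenes with ratios of opposite sign on the same hit. Chick_Unigene_195393 had 1538 normalized counts in condition B and 1103 in condition A (0.48), and Chick_Unigene_37791 had 1775 in condition B and 2853 in condition A (-0.68). Their difference of 1.16 does not depend on the scaling. Deoxyribose-phosphate aldolase (Chick_Unigene_4394, 37.7% identity) had 191 in condition B and 112 in condition A (0.77).

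D-3-phosphoglycerate dehydrogenase, which opens serine synthesis, was lower in condition B in its 4 members at the deposited scaling. Chick_Unigene_10249 had 576 normalized counts in condition B and 888 in condition A (-0.62), and Chick_Unigene_28473 had 451 in condition B and 796 in condition A (-0.82). Chick_Unigene_161775 had 511 in condition B and 709.8 in condition A (-0.47), and Chick_Unigene_129715 had 428 in condition B and 487 in condition A (-0.19). The interval of the last (-0.46 to 0.09) includes 0, and its ratio turns to 0.20 under total scaling. Outside the set, the most abundant unigenes of like name had ratios of the other sign, at low identity. Whether they come from the worm itself was not tested. Chick_Unigene_202723 (*Strongyloides ratti* hit, 33.7% identity) had 3209 in condition B and 528 in condition A (2.60). Chick_Unigene_177154 (*Trichuris trichiura* hit, 45.4% identity) had 2097 in condition B and 361 in condition A (2.53).

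The missing entry step of glycolysis is present in the table under another name. In all, 9 ascaridid-hit unigenes named Phosphotransferase carry the hexokinase activity term; they were added after the values were seen. Their median log2 ratio was -0.88. Of the 9, 0 were called, against 2.95% higher and 7.71% lower among all ascaridid-hit unigenes. The most abundant, Chick_Unigene_84833, had 11464 normalized counts in condition B and 13125 in condition A (-0.20; 0.19 under total scaling). Chick_Unigene_43240 and Chick_Unigene_126223, with one hit between them, had 2716 and 2877 in condition B and 9835 and 9293 in condition A, ratios of -1.86 and -1.69.

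The list of routes that feed glycolysis had a lower median than the set, with no test of the difference, and its products were not alike. The list of other carbon entry, drawn by product words, held 92 unigenes: trehalase, trehalose synthesis, phosphoglucomutase, glucose-6-phosphate isomerase, glucose transporters and 9 glycogen synthase kinase-3 unigenes. That protein kinase, which phosphorylates glycogen synthase among other proteins, is no entry enzyme and was caught by its name, and no unigene of the list is glycogen synthase itself. The list had a median log2 ratio of -0.93 with 4 called higher and 9 called lower, and -0.87 with 4 called higher and 6 called lower over the 83 unigenes without the kinase. The shares called lie near those of all ascaridid hits, 2.95% higher and 7.71% lower, and are no result about the list. Trehalase, which splits trehalose, a sugar that nematodes store and circulate, into glucose, summed to 57191 normalized counts in condition B and 151527 in condition A over 30 unigenes (-1.41), with 0 called higher and 5 lower. Its most abundant unigene, Chick_Unigene_30257, had 32754 in condition B and 103828 in condition A (-1.66; -1.28 under total scaling), and the next, Chick_Unigene_67177, had 4718 in condition B and 13175 in condition A (-1.48). The 9 unigenes of glycogen synthase kinase-3 had a median of -1.88, with 3 called lower. Glucose transporters had a median of -1.10 over 39 unigenes and trehalase -0.92 over 30. Trehalose synthesis had -0.53 over 2, phosphoglucomutase -0.38 over 5 and glucose-6-phosphate isomerase 0.11 over 7.

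Glycogen breakdown was represented by a single unigene. None is named glycogen phosphorylase, but 1, named alpha-1,4 glucan phosphorylase, is that enzyme by its EC number; it was looked up after the values were seen. This unigene, Chick_Unigene_202870, had 13952 normalized counts in condition B and 15714 in condition A (-0.17; 0.21 under total scaling). Glucose-6-phosphate isomerase, which follows hexokinase, had a median of 0.11 over 7 unigenes, yet a summed ratio of -0.42. Of the 7, 2 were called higher and 0 lower, against 2.95% and 7.71% of all ascaridid-hit unigenes. The more abundant of these 2, Chick_Unigene_41021, had 385 in condition B and 79.1 in condition A. It covers 16.2% of its hit at 48.4% identity.

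Downstream of malate the leading unigenes had ratios like those of the set, and also like the median of -0.58 over all ascaridid-hit unigenes. The list of rhodoquinone-linked and succinate steps, whose words also catch enzymes of fatty acid oxidation and ubiquinone synthesis, had a median of -0.51 over 87 unigenes, with 7 called higher and 4 lower. The beta chain of propionyl-CoA carboxylase, which yields propionyl-CoA from methylmalonyl-CoA in *Ascaris*, had 138071 normalized counts in condition B and 198474 in condition A (Chick_Unigene_48541, -0.52; -0.14 under total scaling). A methylmalonyl unigene, whose product name is cut short, had 103905 in condition B and 149766 in condition A (Chick_Unigene_146402, -0.53; -0.14 under total scaling).

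The lists of pyruvate and citrate cycle enzymes had medians near the -0.58 of all 27387 ascaridid-hit unigenes with a mean of at least 10. Calls rest on the 23 unigenes of the pyruvate dehydrogenase list and 20 of the citrate cycle list that reached 20 counts. Among all ascaridid-hit unigenes 2.95% were called higher and 7.71% lower. The pyruvate dehydrogenase list had a median of -0.68 over 24 unigenes with 1 called in each direction; without 11 kinases, phosphatases and phosphatase subunits that regulate the complex, it was -0.57 over 13. Its leading members, both E1 alpha subunits, had 15310 normalized counts in condition B and 21294 in condition A (Chick_Unigene_76031, -0.48) and 16405 in condition B and 19378 in condition A (Chick_Unigene_153655, -0.24; 0.14 under total scaling). The citrate cycle list had a median of -0.63 over 21 unigenes with 1 called in each direction (-0.65 over 18 without ATP-citrate synthase, an enzyme of lipid synthesis), led by aconitate hydratase with 37434 in condition B and 44006 in condition A (Chick_Unigene_184258, -0.23; 0.15 under total scaling) and 2-oxoglutarate dehydrogenase with 19596 in condition B and 23906 in condition A (Chick_Unigene_23057, -0.29; 0.10 under total scaling).

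The last list holds lactate dehydrogenase, which makes lactate from pyruvate, the enzymes around fructose bisphosphate and 2 sulfolactate dehydrogenases caught by name. Its median was -0.47 over 15 unigenes with 0 called higher and 1 lower, against 2.95% and 7.71% of all ascaridid-hit unigenes. Fructose-1,6-bisphosphatase, which reverses phosphofructokinase, was led by Chick_Unigene_168405 with 11659 normalized counts in condition B and 11092 in condition A (0.07), followed by Chick_Unigene_42789 with 2272 in condition B and 4602 in condition A (-1.02). The 4 lactate dehydrogenases summed to 2926 in condition B and 5036 in condition A (-0.78).

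**Figure D5:**
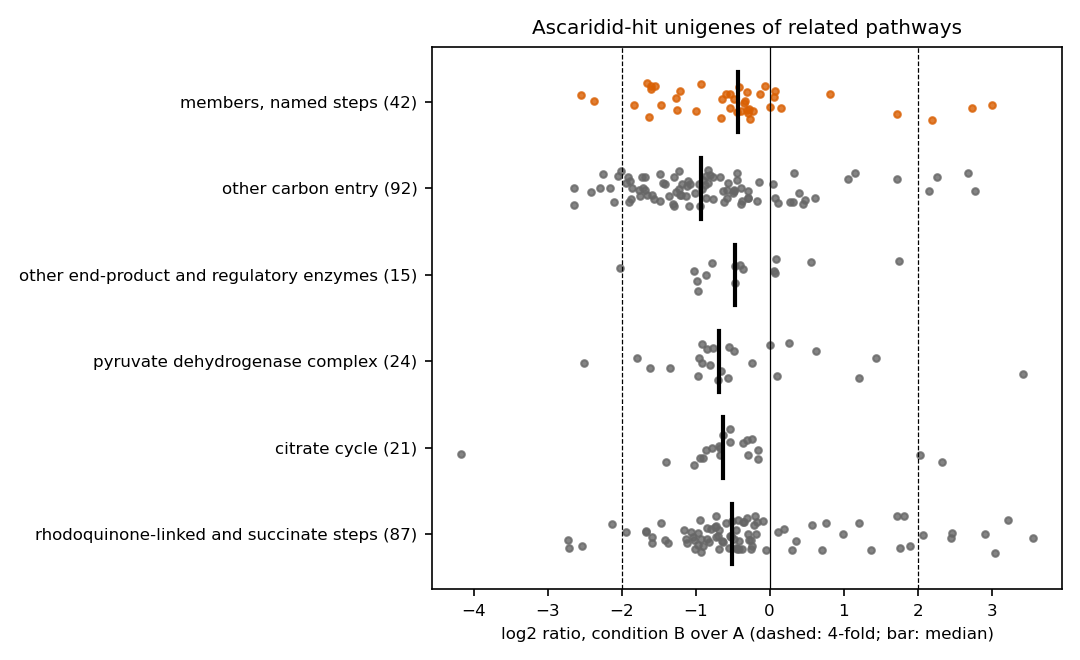
Log2 ratio of condition B over condition A (horizontal axis) for ascaridid-hit unigenes whose mean reached 10 normalized counts, 1 point per unigene, for the 43-member named steps (42 pass the minimum) and 5 related lists; bars mark medians and dashed lines 4-fold. The list of other carbon entry includes the 9 glycogen synthase kinase-3 unigenes and has the lowest median, -0.93 (-0.87 without them), and the named steps have -0.42. All ascaridid-hit unigenes with that minimum, not drawn here, have a median of -0.58.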

How the data were processed

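The authors' deposited table of *A. galli* gives, per the file headers, a score for conditions A and B that is a normalized count, plus a ratio (fold change), a log2 value, a p-value and an adjusted one. It also gives, per the file headers, percent identity to a best hit. The submitters' processing notes name DESeq, without a version. Neither the assembler nor the search tool is named there. A stray line (1) was left out. Whole reads were recovered from the value of 1 read in each column (0.986155 in B, 1.01404 in A); 100% of values were whole within 0.1 read. Most counts were even (75.2% in B, 71.7% in A), so exact binomial counting intervals (95%) used reads divided by 2 and no pseudocount.

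Log2 ratios used a pseudocount of 1. Calls needed a 4-fold difference and 20 normalized counts in the higher condition, and medians a mean of 10. The members and the lists were chosen with earlier results of these data known. Members with a mean of at least 100 are named, as are called ones, and the 2 most abundant unigenes of each list; other unigenes outside the set, and the groupings of further forms, were chosen after values were seen. The count-based test needs replicates and was not run. The code for calls and intervals was run on simulated counts with counting error alone, which bears on the code and not on error between worms. Python 3.11.15, numpy 2.4.6, pandas 2.3.3, scipy 1.17.1 and matplotlib 3.10.9 were used. The sheep worm's table was not used here.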

Additional observations from a re-analysis of the deposited data

How the results depend on the processing

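No paired analysis was possible because each condition has 1 library and the labels give no replicate numbers; for the same reason no library could be left out. The median log2 ratio of the set (-0.42) was -0.0399 under total scaling, -0.29 under the trimmed mean of M-values, -0.44 without a minimum, -0.48 when the mean had to reach 100, -0.51 when each best-hit protein gave 1 unigene, -0.40 with at least 80% identity and, added after the data were seen, -0.46 with counts summed per best hit; a pseudocount of 5 and the named steps alone left it the same. Of the members called higher in condition B (4), 1 was left with a minimum of 100 and 0 when the counting interval had to lie beyond 4-fold. Of those called lower (2), 1 was left under total scaling, and 12 were at least 2-fold lower. The summed log2 ratio of the set (-0.45) was -0.0675 under total scaling, -0.32 under the trimmed mean of M-values and -1.06 without the most abundant member of each step. Under total scaling the list medians were -0.54 (other carbon entry), -0.0894 (end-product and regulatory enzymes), -0.30 (pyruvate dehydrogenase), -0.24 (citrate cycle) and -0.13 (rhodoquinone-linked steps); with a minimum mean of 100, the first and the last 3 were -1.20, -0.77, -0.65 and -0.69. The members minus same-named unigenes with other hits (-2.13) came to -2.11 under total scaling and -0.28 with a minimum mean of 100. Also added after the data were seen, further members with a lower ratio than the leading one of their step numbered 14, against 9 grouped by product name, 10 summed per best hit 19 with all nematode hits, and 14 and 9 by step and by product name with the transaldolases. Without word matches of other function, the list medians were -0.87 (other carbon entry), -0.57 (pyruvate dehydrogenase) and -0.65 (citrate cycle). No member called at 4-fold changed sign under either scaling or a pseudocount of 5. Depth limits the 9 members with a mean under 100, of which 3 had 4 or fewer reads in condition A.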
